A study of Rattus norvegicus with 18 samples.

Results

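The genes described here encode the liver-made proteins of blood clotting, clot dissolution and complement. They are 42 named genes, from the prothrombin gene F2 to the terminal complement gene C9, taken where a probe set of the rat array carried that symbol and no other. Of the 42 genes 40 were measured, each by 1 probe set, out of 18166 genes with such a probe set and 36685 probe sets in all. The complement genes C2 and Cfi were not analysed here. The 40 genes were followed over 6 groups of adult male Sprague-Dawley rats, with 3 rats per group and 1 array of whole-liver RNA per rat. Naive rats were not operated on. PHx rats had 50% of the liver mass removed (partial hepatectomy, PHx), and the remaining 4 groups had the same resection together with controlled bleeding of 3 ml from the femoral artery. Of these, the bleeding group was not resuscitated, F-RBC rats received fresh red blood cells after the resection, S-RBC rats received red blood cells kept for 7 days, and HAES rats received 10% HAES, a starch solution used to replace plasma volume. Operated livers were taken on day 1 after PHx. Naive rats differ from all others by anaesthesia and surgery as well as by resection, which cannot be told apart here.

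Most plasma clotting and complement proteins are made by hepatocytes and secreted into the blood. In clotting, serine protease zymogens activate each other on membranes until thrombin turns fibrinogen into fibrin, while inhibitors limit the cascade and plasmin dissolves the clot. Complement is a parallel cascade in which the classical, lectin and alternative routes meet at C3 and end with the pore-forming terminal components C5 to C9. In the rat, several of these proteins, the fibrinogen chains among them, are acute phase proteins whose genes respond to inflammatory cytokines such as IL-6.

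Levels are given as log2(intensity + 16), written as log2 values below, where intensity is the brightness of a probe set as deposited. The 40 genes covered intensities from 5.19 to 6423, and 39 of them belonged to the brighter 50% of all probe sets, F8 being the exception. Levels of different probe sets depend on their probes and are not compared with each other. A rat is named by its group and replicate, as in naive 1. The array of S-RBC 1 stood apart, with correlations of 0.911 to 0.938 to the other arrays, whereas each of the other 17 arrays had a best correlation of at least 0.968, so calls in S-RBC rats and the medians over the genes are also given without it. Naive 1 had the lowest median over the 40 genes among all 18 arrays, 9.68, against 10.04 in naive 2 and 10.08 in naive 3. Array medians over all probe sets ran from 16.1 to 18.6 in naive, 17.6 to 19.1 in PHx, 19.7 to 21.4 in bleeding, 20.9 to 22.7 in F-RBC, 17.98 to 20.1 in S-RBC and 16.8 to 23.0 in HAES rats. Of 10 listed hepatocyte markers 7 were measured, none below an intensity of 1 on all arrays of a group. Their summed intensity ranged from 20211 to 25213 in naive rats and from 19089 to 24589 in operated rats, so the ranges overlapped. Brighter markers weigh most in this sum, and most single markers leaned lower in each operated group. Log2 fold changes against naive rats were above 0 for 2 of 7 in PHx (median −0.28) and 1 in bleeding rats (−0.18). They were above 0 for 3 in F-RBC (−0.10), 2 in S-RBC (−0.14) and 2 in HAES rats (−0.24). The test used below called 1 marker lower, in F-RBC rats, and 1 higher, in HAES rats. In whole liver, fewer cells of a type and less RNA per cell cannot be told apart.

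A subset of the genes was higher in operated than in naive livers, and no gene passed the test in the downward direction in any of the 12 comparisons. Kng1, which encodes kininogen, C4bpa, which encodes the alpha chain of C4b-binding protein, and C9, the last terminal complement component, rose in all 5 comparisons with naive rats. C5 rose in 4 of the 5. F5, C1s and C4bpb rose in 3, F7 in 2, and 9 further genes in 1 (Fga, Fgb, Fgg, Tfpi, Serpinf2, Cpb2, C1r, Masp1 and Masp2). The other 23 genes, including F2, F9, F10, Serpinc1, Plg and C3, passed in none. The 5 comparisons share the same 3 naive rats, so a rise in several of them is not an independent repeat. These 39 changes against naive rats were called by limma at an adjusted p under 0.05 (Benjamini-Hochberg over all probe sets), and 14 of them stayed past the threshold with each of the 18 arrays left out in turn. Those 14 were Kng1 in all 5 comparisons, C4bpa in bleeding, F-RBC and S-RBC rats, C5 in F-RBC, S-RBC and HAES rats, C9 in F-RBC and S-RBC rats and C4bpb in S-RBC rats.

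**Figure D1:**
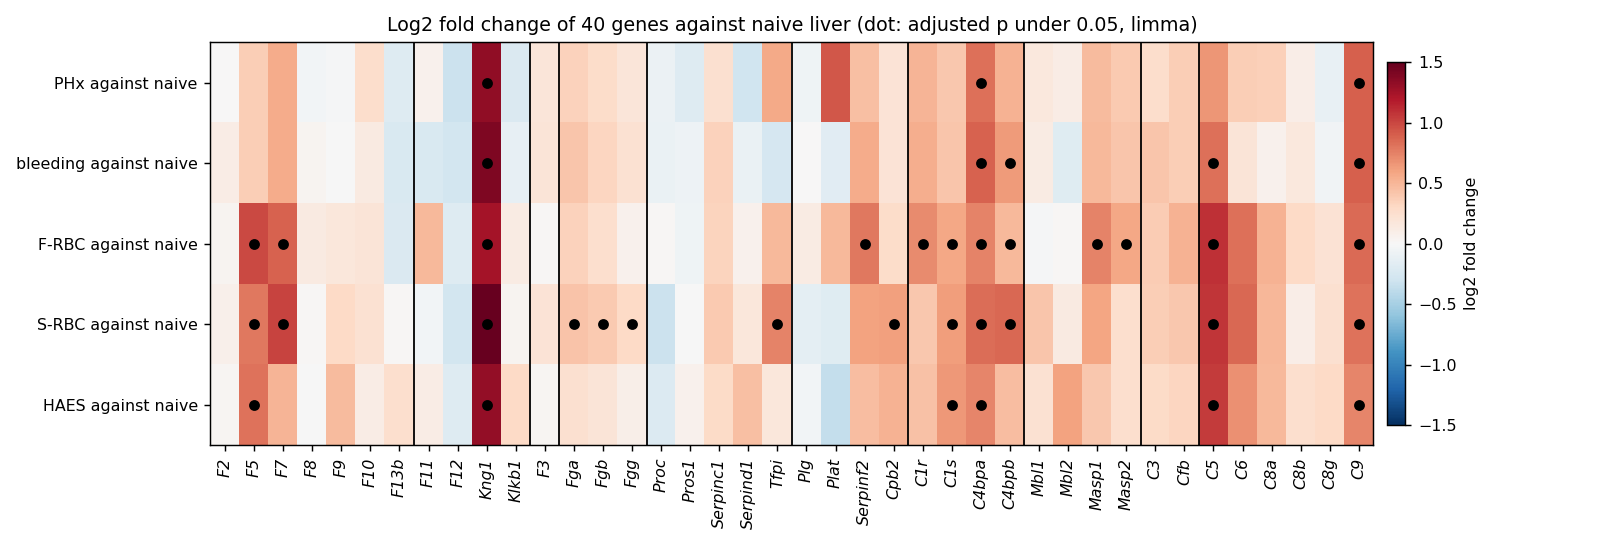
Log2 fold change of each of the 40 genes (columns, grouped by role with a line between roles) in the 5 operated groups against naive rats (rows). Colour gives the fold change, red for higher and blue for lower in the operated group, and a dot marks an adjusted p under 0.05 by limma. Kng1, C4bpa and C9 carry a dot in all 5 rows, and all 39 dots stand on higher values.

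In counts, 3 of the 40 genes rose in PHx against naive rats, where 0.245% of all probe sets and 0.469% of the brighter 50% were called higher and 0.101% of all were called lower. In bleeding rats 5 rose, against 0.57% and 0.791%, with 0.349% lower. In F-RBC rats 12 rose, against 4.9% and 6.15%, with 1.28% lower. In S-RBC rats 13 rose, against 2.56% and 3.45%, with 0.804% lower, and in HAES rats 6 rose, against 1.78% and 1.69%, with 0.842% lower. The share of the 40 genes was thus 7.5%, 12.5%, 30%, 32.5% and 15% in that order, above the background each time. The genes were chosen with earlier results of these data known, and the comparisons share the same naive rats. These shares therefore describe the 40 genes and are not independent support for a rise. The median log2 fold change of the 40 genes was 0.26, 0.19, 0.34, 0.38 and 0.29, beside 0.03, 0.06, 0.14, 0.06 and 0.05 over all probe sets. The median in bleeding rats was 0.08 without naive 1 and 0.07 after median centring, and that in S-RBC rats was 0.29 without S-RBC 1 and 0.25 after quantile normalization.

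The counts depended on single arrays. In PHx rats the count was 1, Kng1 alone, without naive 1, naive 2, PHx 1 or PHx 3. In bleeding rats it was 3 without naive 1 or bleeding 3 and 2 without naive 2, bleeding 1 or bleeding 2. For F-RBC rats it was 4 without naive 1 or F-RBC 3, 5 without naive 2 and 6 without F-RBC 2. S-RBC rats gave 5 without naive 1, 8 without naive 2, and 7 without S-RBC 1 or S-RBC 3. HAES rats gave 2 without naive 1 or HAES 3. Without S-RBC 1 the 7 that passed were Kng1, C4bpa, C4bpb, C5, C9, F7 and Tfpi.

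Scaling of the arrays also mattered. Under median centring the count in F-RBC rats was 6, and the median over all probe sets in that comparison moved from 0.14 to −0.04, with the 40 genes at 0.16. The share of all calls that were higher in F-RBC than in naive rats was 79.3% as tested, 50.3% after quantile normalization and 33.3% after median centring. It was 70.9%, 55.8% and 65.3% for PHx, 62%, 55.5% and 25.9% for bleeding, 76.1%, 59.1% and 61.7% for S-RBC and 67.9%, 61.2% and 52.5% for HAES rats. Among the 40 genes the direction of a call was never reversed by a scaling, but after quantile normalization F12 was called lower in S-RBC rats (−0.42, adjusted p = 0.030, limma).

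In a test of any difference between the 6 groups (limma's moderated F test), 8 of 40 genes passed, or 20%, where 6.59% of all probe sets and 9.57% of the brighter 50% did. This share too comes from genes chosen with earlier results of these data known. The genes that passed are given with their adjusted p. These 8 were Kng1 (adjusted p = 2.2e-05), C5 (0.0050), C4bpa (0.0054), C4bpb (0.0063), C9 (0.0084), Tfpi (0.012), F5 (0.037) and F7 (0.038). Serpind1 missed the threshold narrowly at 0.0501. The first 6 passed with every array left out, whereas F5 passed in 9 and F7 in 5 of those 18 fits.

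Promoter sequences are shown for the 5 genes with a window that rose in 3 or more comparisons with naive rats, and for 2 fibrinogen genes as known acute phase genes of the rat. Of the 40 genes 30 had an upstream window in RefSeq (build GRCr8), taken as the 250 bases before the annotated start. The letters CTGGGAA, the core of an IL-6 response element described in rat acute phase genes, were searched on both strands, as were TTGCNNAA, which fits C/EBP factors, and GTTAAT, a short form of the HNF1 site. CTGGGAA was found for 10 of the 30 genes (33.3%) and in 9.56% of all 33469 windows of this length. TTGCNNAA was found for 12 genes (40%) and in 9.22% of windows, and GTTAAT for 11 genes (36.7%) and in 6.45% of windows. A gene was counted if any of its windows held the letters, whereas the background counts single windows. Some genes, such as Fga, have more than 1 window, which can raise the share of the genes. Of the 5 genes that rose in 3 or more comparisons (Kng1, C4bpa, C4bpb, C5 and F5), 2 carried CTGGGAA, as did 8 of the other 25. Of these 8 genes C1r, Fgb, Fgg and Tfpi rose in 1 comparison with naive rats each. C3, F9, Plg and Serpinc1 rose in none. TTGCNNAA stood in 2 of the 5 and 10 of the 25, and GTTAAT in 3 of the 5 and 8 of the 25. A match describes letters only. Below, capitals mark the 3 motifs on either strand (CTGGGAA or TTCCCAG, TTGCNNAA or TTNNGCAA, GTTAAT or ATTAAC), none of which overlap in these windows, and each sequence reads 5′ to 3′ toward the start of the gene.
Kng1, chr11:91340149-91340398, minus strand: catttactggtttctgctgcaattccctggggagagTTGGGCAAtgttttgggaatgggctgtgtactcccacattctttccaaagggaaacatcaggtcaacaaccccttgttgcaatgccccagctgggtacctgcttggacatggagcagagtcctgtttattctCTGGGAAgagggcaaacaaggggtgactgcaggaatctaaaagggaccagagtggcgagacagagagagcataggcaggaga
C4bpa, chr13:44663472-44663721, minus strand: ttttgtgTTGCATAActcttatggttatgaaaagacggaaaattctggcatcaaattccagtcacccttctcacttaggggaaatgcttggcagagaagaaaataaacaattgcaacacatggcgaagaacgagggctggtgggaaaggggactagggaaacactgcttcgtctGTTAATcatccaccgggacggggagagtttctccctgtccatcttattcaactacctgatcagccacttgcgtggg
C4bpb, chr13:44683782-44684031, minus strand: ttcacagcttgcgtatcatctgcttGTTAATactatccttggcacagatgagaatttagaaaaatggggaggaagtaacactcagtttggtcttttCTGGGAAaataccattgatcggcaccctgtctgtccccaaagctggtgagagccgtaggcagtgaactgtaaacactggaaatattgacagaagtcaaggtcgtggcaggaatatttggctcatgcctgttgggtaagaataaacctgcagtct
C5, chr3:38759469-38759718, minus strand: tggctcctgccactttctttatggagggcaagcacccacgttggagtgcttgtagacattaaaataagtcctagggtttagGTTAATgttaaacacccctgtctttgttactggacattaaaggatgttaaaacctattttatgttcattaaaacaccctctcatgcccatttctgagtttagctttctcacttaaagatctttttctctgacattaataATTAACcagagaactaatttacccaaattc
F5, chr13:79046407-79046656, plus strand: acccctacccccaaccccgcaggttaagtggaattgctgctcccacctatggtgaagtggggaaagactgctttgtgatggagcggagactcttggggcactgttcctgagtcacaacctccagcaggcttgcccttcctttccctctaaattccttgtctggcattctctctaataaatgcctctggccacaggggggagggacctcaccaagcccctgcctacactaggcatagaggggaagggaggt
Fgb, chr2:170700876-170701125, minus strand: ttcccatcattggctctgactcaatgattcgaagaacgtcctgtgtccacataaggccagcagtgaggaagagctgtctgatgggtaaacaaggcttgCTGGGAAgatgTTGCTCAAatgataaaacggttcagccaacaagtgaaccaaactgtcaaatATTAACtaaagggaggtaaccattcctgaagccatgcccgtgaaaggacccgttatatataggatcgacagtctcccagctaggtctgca
Fgg, chr2:170652833-170653082, plus strand: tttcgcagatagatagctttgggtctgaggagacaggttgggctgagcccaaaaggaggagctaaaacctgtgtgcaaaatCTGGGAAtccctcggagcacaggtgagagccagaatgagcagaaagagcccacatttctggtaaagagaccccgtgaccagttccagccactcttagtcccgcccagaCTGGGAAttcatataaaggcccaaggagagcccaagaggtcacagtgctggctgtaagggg
The Kng1 window holds CTGGGAA starting 82 bases before the gene and TTGCNNAA on the opposite strand. C4bpb holds CTGGGAA starting 154 bases before the gene, whereas C4bpa, on the same chromosome and strand, holds none and has TTGCNNAA and GTTAAT. C5 holds GTTAAT in each orientation and no CTGGGAA, and F5 holds none of the 3 motifs. Fgb holds all 3 motifs and Fgg holds CTGGGAA at 2 places.

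Among the coagulation factors, F5 and F7 were higher in some operated groups, while F2, F8, F9, F10 and F13b passed in no comparison. F5 encodes factor V, the cofactor that speeds thrombin formation. Its log2 values were 8.31, 8.99 and 9.07 in naive, 9.46, 8.99 and 9.04 in PHx, 9.16, 8.86 and 9.45 in bleeding, 9.56, 9.77 and 10.01 in F-RBC, 9.75, 9.57 and 9.44 in S-RBC and 9.51, 9.49 and 9.79 in HAES rats. Naive 1 was the lowest of all, the PHx and bleeding rats overlapped the naive rats, and every resuscitated rat was above all naive rats. F5 rose by 0.99 ± 0.21 (log2 fold change ± SE, n = 3 against 3) in F-RBC (adjusted p = 0.013, limma), 0.80 in S-RBC (adjusted p = 0.046) and 0.81 in HAES rats (adjusted p = 0.048), whereas it was 0.37 in both PHx and bleeding rats (adjusted p = 0.57 and 0.43). The call in F-RBC rats was lost without naive 1 or F-RBC 3, with an adjusted p of up to 0.067. That in S-RBC rats held only without naive 3, PHx 1, bleeding 2, bleeding 3, F-RBC 1, F-RBC 3 or HAES 3, and reached an adjusted p of 0.21 otherwise. In HAES rats it held only without naive 3, PHx 1, bleeding 2, bleeding 3 or S-RBC 1, reaching 0.22 otherwise. F5 of resuscitated rats was not called against unresuscitated bleeding rats (0.62 in F-RBC, adjusted p = 0.17), except in F-RBC rats with array weights (0.65, adjusted p = 0.035).

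F7 encodes factor VII, which starts clotting together with tissue factor. For F7 the log2 values were 6.80, 6.99 and 7.36 in naive, 8.06, 7.30 and 7.48 in PHx, 7.69, 7.62 and 7.51 in bleeding, 7.89, 7.78 and 8.12 in F-RBC, 8.13, 7.95 and 8.12 in S-RBC and 7.39, 7.42 and 7.87 in HAES rats. PHx 2 lay within the naive range, and all other operated rats were above it, HAES 1 and HAES 2 by little. The rise was 0.88 ± 0.20 in F-RBC (adjusted p = 0.018, limma) and 1.01 ± 0.20 in S-RBC rats (adjusted p = 0.0094), and it was lost without naive 1 in both, with adjusted p of up to 0.084 and of 0.058. In F-RBC rats it was also lost without naive 2 or F-RBC 3. Without S-RBC 1 the adjusted p in S-RBC rats was 0.035. The remaining 5 factors had group means that spanned between 0.11 (F2, prothrombin) and 0.49 (F9, factor IX) on the log2 scale, with adjusted p of the F test from 0.12 to 0.96.

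In the contact system, which triggers clotting on charged surfaces and releases bradykinin, Kng1 stood alone. Its log2 values were 10.54, 10.50 and 11.01 in naive, 11.99, 12.01 and 12.04 in PHx, 12.21, 11.999 and 12.05 in bleeding, 11.83, 11.92 and 12.03 in F-RBC, 12.25, 12.06 and 12.22 in S-RBC and 11.99, 12.01 and 11.9998 in HAES rats. All 15 operated rats were well above the 3 naive rats, and the operated groups overlapped each other. Kng1 rose by 1.33 in PHx, 1.40 in bleeding, 1.24 in F-RBC, 1.49 in S-RBC and 1.31 in HAES rats (SE 0.12 each), or 2.51-fold, 2.64-fold, 2.37-fold, 2.81-fold and 2.49-fold, with adjusted p between 4.5e-06 and 5.0e-05 (limma). Under all 26 alternatives the adjusted p of the F test was at most 0.00053. The rat has further kininogen genes, Kng2 and Kng2l1, which share a probe set and were not analysed here, and how far the Kng1 probes tell these genes apart was not tested. F11, F12 and Klkb1, the zymogens of the same system, were not called as tested. F12, factor XII, had the lowest fold change of the 40 genes in PHx and in bleeding rats, −0.32 and −0.28, with adjusted p of 0.36 and 0.33.

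Tissue factor, the trigger of clotting after injury, is encoded by F3. Log2 values of F3 were 5.07, 5.78 and 5.91 in naive, 5.82, 5.71 and 5.75 in PHx, 5.58, 5.94 and 5.80 in bleeding, 5.60, 5.55 and 5.67 in F-RBC, 5.95, 5.65 and 5.77 in S-RBC and 5.37, 5.53 and 5.96 in HAES rats. Naive 1 lay below the rest and the groups otherwise overlapped. No comparison was called, the largest difference being 0.21 ± 0.20 in S-RBC against naive rats (adjusted p = 0.64, limma).

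**Figure D2:**
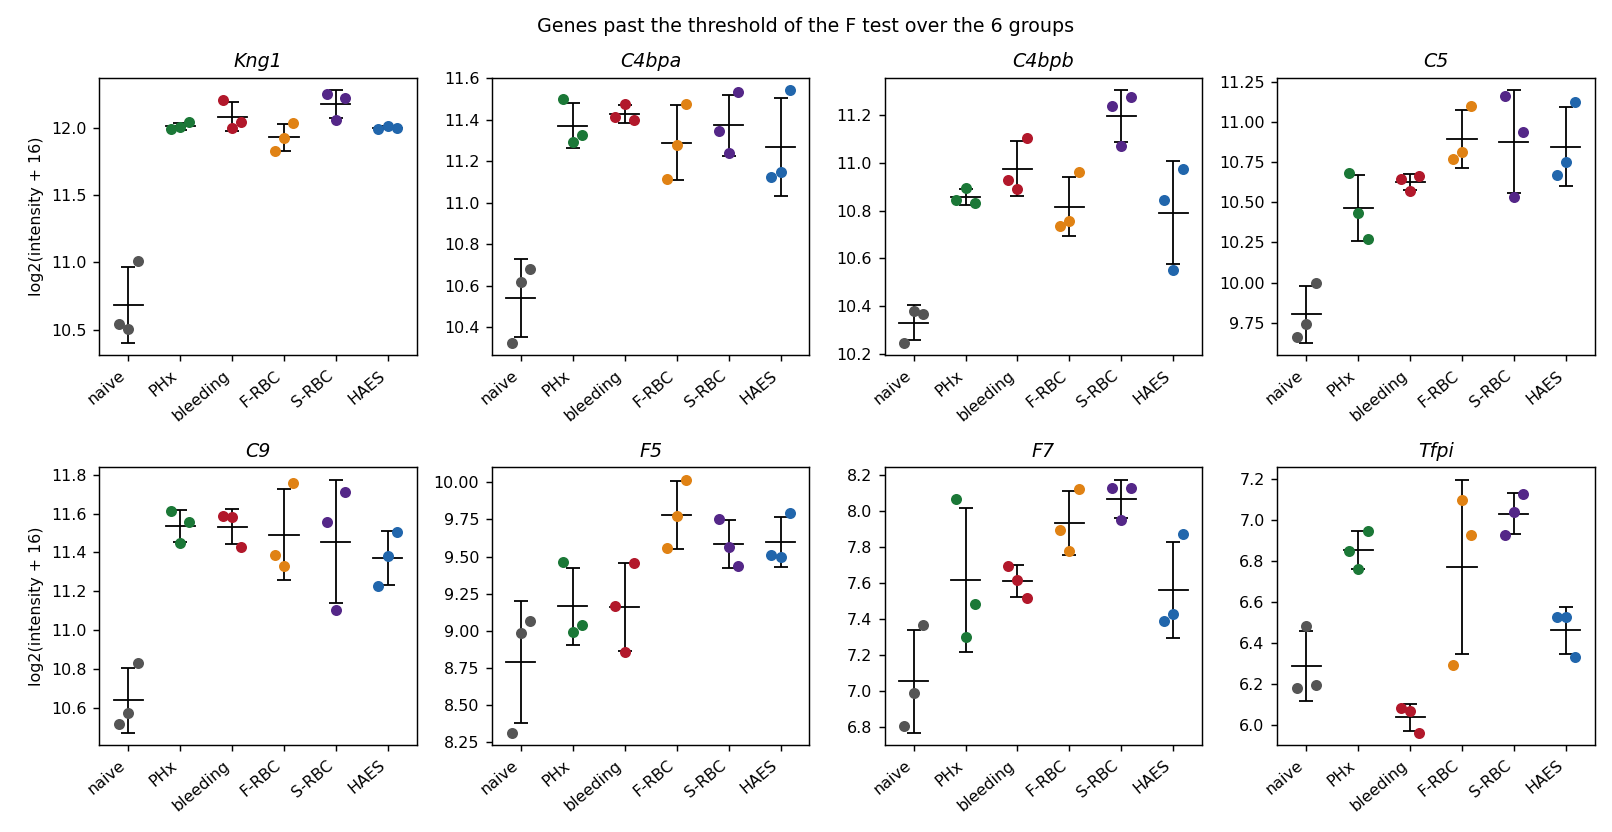
Log2(intensity + 16) of the 8 genes past the threshold of the F test, on each array (dots, 3 per group from replicate 1 to the left), with the group mean and SD (bars). Kng1, C4bpa, C4bpb, C5 and C9 of every operated rat lie above all 3 naive rats, and Tfpi of the bleeding rats, 5.96 to 6.08, lies below all other rats.

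The fibrinogen genes Fga, Fgb and Fgg, which encode the 3 chains of the clot precursor, were highest in S-RBC rats by group mean and rose there only by small amounts. Fgb had log2 values of 11.95, 11.87 and 12.07 in naive, 12.30, 12.21 and 12.22 in PHx, 12.29, 12.26 and 12.32 in bleeding, 12.15, 12.20 and 12.29 in F-RBC, 12.45, 12.33 and 12.30 in S-RBC and 12.05, 12.16 and 12.25 in HAES rats. HAES 1 lay among the naive rats, and every other operated rat was above them. In S-RBC rats Fga rose by 0.43, Fgb by 0.40 and Fgg by 0.30 (adjusted p = 0.034, 0.021 and 0.044, limma), which is 1.35-fold, 1.32-fold and 1.23-fold. Without S-RBC 1 none of the 3 was called, with adjusted p of 0.083, 0.076 and 0.10. The Fga and Fgb calls were also lost without naive 1 or naive 2, and that of Fga without S-RBC 2 or S-RBC 3. The Fgg call held only without naive 3, F-RBC 3, HAES 1 or HAES 3. In the other 4 operated groups the 3 genes were 0.07 to 0.42 above naive and not called as tested, although Fga passed in bleeding rats after quantile normalization (0.40, adjusted p = 0.048) and in F-RBC rats (0.35, adjusted p = 0.044). Fga and Fgb also passed in both groups with array weights or an offset of 64, and in bleeding rats without the dimmer probe sets. In S-RBC against bleeding rats the 3 genes differed by only 0.0087 to 0.077 (adjusted p from 0.63 to 0.98, limma), so the rise was not particular to S-RBC rats. Fgg in S-RBC against F-RBC rats was 0.23 ± 0.08 (adjusted p = 0.13), and also 0.23 without S-RBC 1 (adjusted p = 0.25).

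Of the 5 anticoagulants Tfpi differed between operated groups. It encodes tissue factor pathway inhibitor, which blocks factor Xa and the tissue factor complex and is made largely by endothelial cells. Its log2 values were 6.18, 6.48 and 6.19 in naive, 6.85, 6.76 and 6.95 in PHx, 6.08, 6.07 and 5.96 in bleeding, 6.29, 7.10 and 6.93 in F-RBC, 6.93, 7.04 and 7.13 in S-RBC and 6.53, 6.53 and 6.33 in HAES rats. The 3 bleeding rats were the lowest of all 18, the PHx and S-RBC rats were above every naive rat, and F-RBC 1 lay within the naive range, apart from the other F-RBC rats. Tfpi rose by 1.00 ± 0.17 in S-RBC against bleeding rats (1.99-fold, adjusted p = 0.0094, limma), 1 of 40 genes or 2.5%, where 1.22% of all probe sets and 1.71% of the brighter 50% were called higher. It was lost without bleeding 3 (0.96, adjusted p = 0.055) and passed without S-RBC 1 (1.05, adjusted p = 0.021). In F-RBC against bleeding rats Tfpi rose by 0.73 ± 0.17 (adjusted p = 0.0497), again 1 of 40 genes, where 1.01% of probe sets and 1.76% of the brighter 50% were called higher and 0.194% lower. That call held only without naive 1, F-RBC 1 or S-RBC 1, had an adjusted p of 0.22 without F-RBC 2, and was lost under quantile normalization (0.63, adjusted p = 0.053) and median centring (0.67, adjusted p = 0.075). Against naive rats Tfpi rose in S-RBC rats (0.75 ± 0.17, adjusted p = 0.027) and was lost without naive 1, naive 3, S-RBC 2 or S-RBC 3, with an adjusted p of up to 0.11. In bleeding against PHx rats Tfpi was −0.82 ± 0.17 (adjusted p = 0.15) although the 2 groups did not overlap, a comparison in which 0% of probe sets were called. It was called lower there only with array weights (−0.84, adjusted p = 0.021).

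Summed intensities of non-hepatocyte marker genes moved in some of the same groups. The summed intensity of 6 of 6 stellate cell markers was 385 to 518 in bleeding rats, 528 to 653 in naive, 623 to 892 in PHx, 710 to 1070 in F-RBC, 632 to 922 in S-RBC and 567 to 892 in HAES rats, so bleeding rats were lowest for it as for Tfpi. For 3 of 6 endothelial markers the sum was 309 to 438 in bleeding, 402 to 507 in S-RBC and 534 to 613 in F-RBC rats, with naive rats at 409 to 487, PHx rats at 418 to 451 and HAES rats at 402 to 463. Brighter markers weigh most in such sums, and single markers did not all follow them. The next counts are of markers with a log2 fold change against naive rats above 0, called or not. Of 6 stellate markers they were 5 in PHx (median 0.65), 2 in bleeding (−0.04), 6 in F-RBC (0.45), 2 in S-RBC (−0.15) and 3 in HAES rats (0.05). Called higher were 1, 0, 1, 2 and 1 in that order, with the background shares given above. Of 3 endothelial markers they were 1 in PHx (median −0.24), 0 in bleeding (−0.30), 1 in F-RBC (−0.09), 1 in S-RBC (−0.19) and 2 in HAES rats (0.02). Of these markers 1 was called higher, in F-RBC rats. No stellate or endothelial marker was below 1 on all arrays of a group. The part of these cells in the Tfpi result was not tested.

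The other 4 anticoagulants were Proc (protein C), Pros1 (protein S), Serpinc1 (antithrombin) and Serpind1 (heparin cofactor II), and none was called in any comparison as tested. Serpind1 came closest, with group means from 9.87 in PHx to 10.62 in HAES rats. HAES rats were not compared directly with PHx rats. HAES 1, HAES 2 and HAES 3 were at 10.70, 10.42 and 10.75, against 10.21, 10.04 and 9.99 in bleeding rats. The groups did not overlap, and the difference of 0.54 ± 0.15 had an adjusted p of 0.080 (limma), falling to 0.036 without F-RBC 2.

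In fibrinolysis, Plg encodes plasminogen, Plat its tissue-type activator, Serpinf2 the plasmin inhibitor alpha-2-antiplasmin and Cpb2 a carboxypeptidase that protects fibrin. Cpb2 had log2 values of 10.59, 10.88 and 11.01 in naive, 11.01, 11.09 and 10.98 in PHx, 11.15, 11.02 and 10.90 in bleeding, 11.07, 10.89 and 11.33 in F-RBC, 11.54, 11.23 and 11.56 in S-RBC and 11.31, 11.23 and 11.52 in HAES rats. S-RBC and HAES rats were above all naive rats, and the other groups overlapped them. Cpb2 rose by 0.62 ± 0.14 in S-RBC rats (adjusted p = 0.025, limma), lost without naive 1, naive 2, S-RBC 1 or S-RBC 3 with an adjusted p of up to 0.13. In HAES rats it was 0.53 ± 0.14 (adjusted p = 0.060).

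Serpinf2 rose in F-RBC rats by 0.80 ± 0.22 (adjusted p = 0.039, limma), and the call was lost without naive 1, naive 2 or any of the bleeding or F-RBC rats, with an adjusted p of up to 0.15. Plg was not called, with group means between 10.88 and 11.15. Plat was uneven within groups, at 7.53, 6.06 and 7.34 in PHx and 5.73, 7.35 and 6.52 in F-RBC rats, whereas the other 12 rats lay between 5.61 and 6.11. It was not called as tested. Without PHx 2 it passed in PHx against naive rats (1.39, adjusted p = 0.0496) and was lower in S-RBC than in PHx rats (−1.57, adjusted p = 0.032). The summed intensity of 5 of 5 recruited macrophage markers ran from 377 to 1999 in PHx, 169 to 505 in F-RBC, 110 to 218 in naive, 92.7 to 350 in bleeding, 129 to 213 in S-RBC and 108 to 118 in HAES rats, and its part in the Plat values was not tested.

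**Figure D3:**
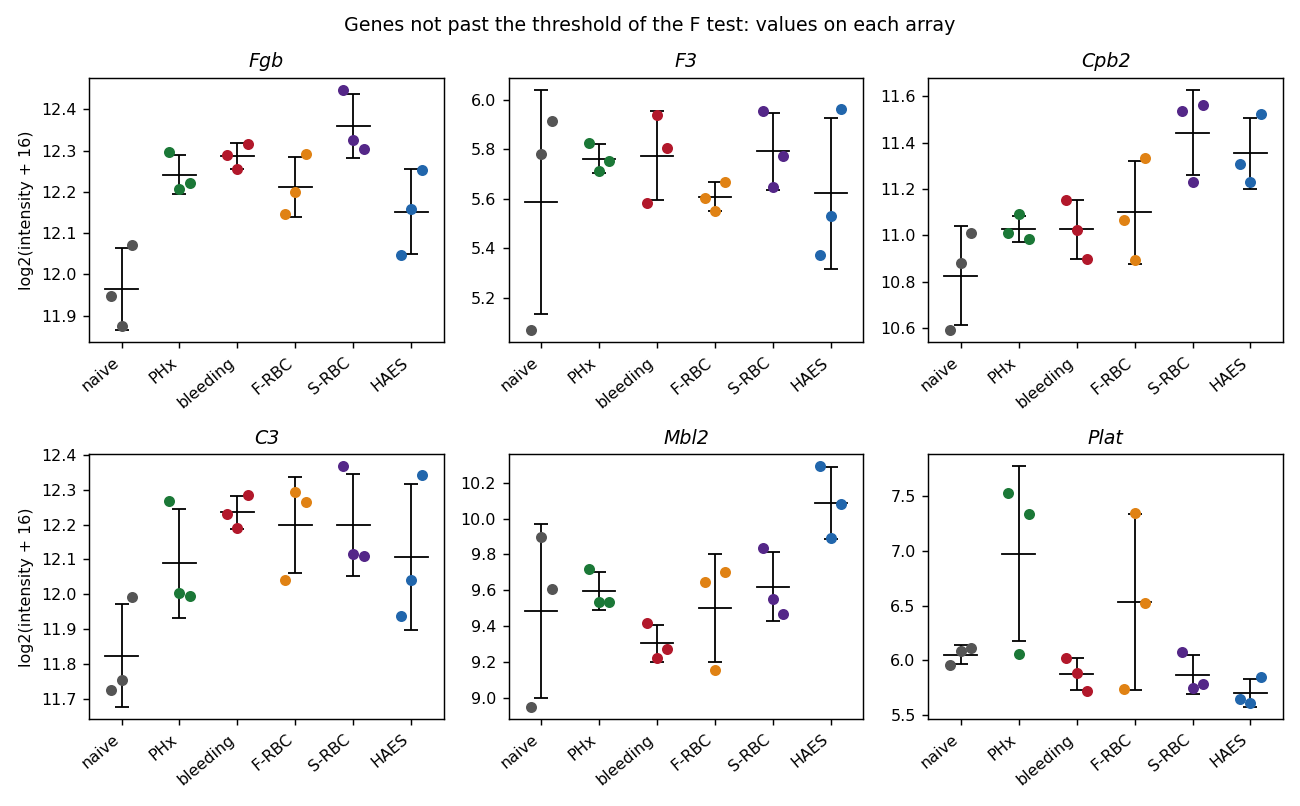
Log2(intensity + 16) of Fgb, F3, Cpb2, C3, Mbl2 and Plat on each array (dots, 3 per group), with the group mean and SD (bars). Naive 1 is the lowest rat for F3, Cpb2, C3 and Mbl2, and the Plat values of PHx and F-RBC rats spread from 5.73 to 7.53.

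The classical pathway genes were above naive in all operated groups, and all 4 measured rose in F-RBC rats. C1r and C1s encode the proteases that open the pathway, and C4bpa and C4bpb encode the chains of C4b-binding protein, which dampens it. C4bpa had log2 values of 10.32, 10.62 and 10.68 in naive, 11.50, 11.29 and 11.33 in PHx, 11.41, 11.48 and 11.40 in bleeding, 11.12, 11.28 and 11.47 in F-RBC, 11.35, 11.24 and 11.53 in S-RBC and 11.12, 11.15 and 11.54 in HAES rats. All 15 operated rats lay above the naive rats, with no order among the operated groups. It rose by 0.83 in PHx (adjusted p = 0.017), 0.89 in bleeding (0.0056), 0.75 in F-RBC (0.0063), 0.83 in S-RBC (0.0032) and 0.73 in HAES rats (0.0078), with an SE of 0.14 (limma). The PHx call was lost without naive 1, naive 2, PHx 1 or PHx 3 (adjusted p of up to 0.10) and the HAES call without naive 1 or HAES 3 (up to 0.055).

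C4bpb had log2 values of 10.25, 10.38 and 10.37 in naive, 10.84, 10.90 and 10.83 in PHx, 10.93, 10.89 and 11.11 in bleeding, 10.73, 10.76 and 10.96 in F-RBC, 11.24, 11.07 and 11.28 in S-RBC and 10.85, 10.55 and 10.98 in HAES rats. Operated rats were again all above naive rats, HAES 2 by the least, and 2 of the 3 S-RBC rats were the highest of all. It rose by 0.86 ± 0.12 in S-RBC (adjusted p = 0.0010, limma), 0.64 in bleeding (0.020) and 0.48 in F-RBC rats (0.026), and was 0.53 in PHx (adjusted p = 0.078) and 0.46 in HAES rats (0.051). Both of these passed after quantile normalization (adjusted p = 0.028 and 0.020). The bleeding call was lost without naive 1, naive 2 or any bleeding rat (up to 0.11) and the F-RBC call without any naive rat, F-RBC 2 or F-RBC 3 (up to 0.097). In S-RBC against F-RBC rats C4bpb was 0.38 ± 0.12 (adjusted p = 0.12), or 0.36 without S-RBC 1 (adjusted p = 0.24).

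C1s rose in F-RBC (0.58), S-RBC (0.63) and HAES rats (0.65, SE 0.15 each, adjusted p = 0.034, 0.030 and 0.026, limma), and in S-RBC rats it was not called without S-RBC 1 (0.50, adjusted p = 0.12), naive 1, naive 3 or S-RBC 3. The F-RBC call was lost without any naive or F-RBC rat and the HAES call without naive 1, naive 3, HAES 2 or HAES 3, with adjusted p of up to 0.14 in each. C1r rose by 0.71 ± 0.20 in F-RBC rats (adjusted p = 0.048). With 1 array left out this held only without naive 3, PHx 1, PHx 2, S-RBC 1, S-RBC 3 or HAES 3 and reached 0.19 otherwise. Over all 28 alternatives, left-out arrays included, the C1r call held in 10.

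In the lectin pathway, where collectins bind microbial sugars, the proteases rose in 1 group and the collectins in none. Mbl2, a mannose-binding lectin, had log2 values of 8.95, 9.89 and 9.61 in naive, 9.72, 9.53 and 9.53 in PHx, 9.42, 9.22 and 9.27 in bleeding, 9.65, 9.15 and 9.70 in F-RBC, 9.84, 9.55 and 9.47 in S-RBC and 10.29, 9.89 and 10.08 in HAES rats. HAES rats were the highest, with HAES 2 and naive 2 side by side, and naive 1 was the lowest. In HAES against bleeding rats, where 1.15% of probe sets and 1.38% of the brighter 50% were called higher, 0.66% were lower and 0 of the 40 genes passed, Mbl2 was 0.78 ± 0.21 (adjusted p = 0.064, limma), and it passed without naive 1 (adjusted p = 0.023), under quantile normalization (0.025) and under median centring (0.045). Masp1 and Masp2, which encode the serine proteases bound to these lectins, rose in F-RBC rats by 0.75 ± 0.21 and 0.58 ± 0.16 (adjusted p = 0.045 for each). Masp1 held only without PHx 1, any S-RBC rat, HAES 1 or HAES 3 and reached 0.16 otherwise. Masp2 held only without naive 3, PHx 1, PHx 2, S-RBC 1, S-RBC 3, HAES 1 or HAES 3 and reached 0.18 otherwise. Over all 28 alternatives, left-out arrays included, the Masp1 call held in 10 and the Masp2 call in 13. Mbl1 was not called.

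C3, the hub of the 3 routes, had log2 values of 11.72, 11.75 and 11.99 in naive, 12.27, 12.003 and 11.99 in PHx, 12.23, 12.19 and 12.28 in bleeding, 12.04, 12.29 and 12.27 in F-RBC, 12.37, 12.12 and 12.11 in S-RBC and 11.94, 12.04 and 12.34 in HAES rats. Only HAES 1 lay below naive 3, and PHx 3 matched it. The differences from naive rats ran from 0.27 to 0.41 with adjusted p from 0.082 to 0.47 (limma), and C3 passed in F-RBC rats after quantile normalization (0.39, adjusted p = 0.031). Cfb, which encodes factor B of the alternative convertase, was 0.52 above naive in F-RBC rats and also passed under that scaling (0.47, adjusted p = 0.0499).

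Of the 6 terminal pathway genes C5 and C9 rose, and C6, C8a, C8b and C8g, which encode the parts assembled between them, did not pass. C5 had log2 values of 9.66, 9.74 and 10.00 in naive, 10.68, 10.43 and 10.27 in PHx, 10.64, 10.57 and 10.66 in bleeding, 10.77, 10.81 and 11.10 in F-RBC, 11.16, 10.53 and 10.94 in S-RBC and 10.67, 10.75 and 11.12 in HAES rats. Every operated rat was above the naive rats, with PHx 3 nearest to them. It rose by 1.09 in F-RBC (2.13-fold, adjusted p = 0.0020), 1.07 in S-RBC (0.0024), 1.04 in HAES (0.0025) and 0.82 in bleeding rats (0.033), with an SE of 0.17, and was 0.66 in PHx rats (adjusted p = 0.12, limma). Without S-RBC 1 the rise in S-RBC rats was 0.93 (adjusted p = 0.014), and the bleeding call was lost without naive 1, naive 2 or any bleeding rat (up to 0.12). Between F-RBC and PHx rats C5 was 0.43 ± 0.17 (adjusted p = 0.27). C6 differed from naive by as much as 0.82 ± 0.32 in F-RBC and 0.86 ± 0.32 in S-RBC rats (adjusted p = 0.13 and 0.17), but its rats scattered widely, from 8.79 to 9.76 and from 8.74 to 9.79, against 8.12 to 8.71 in naive rats.

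C9 had log2 values of 10.51, 10.57 and 10.83 in naive, 11.61, 11.45 and 11.55 in PHx, 11.59, 11.58 and 11.43 in bleeding, 11.39, 11.33 and 11.76 in F-RBC, 11.56, 11.10 and 11.71 in S-RBC and 11.23, 11.38 and 11.51 in HAES rats. The naive rats were again below all others, and the operated groups overlapped. It rose by 0.90 in PHx (adjusted p = 0.020), 0.89 in bleeding (0.011), 0.85 in F-RBC (0.0054), 0.82 in S-RBC (0.0065) and 0.73 in HAES rats (0.015), with an SE of 0.15 (limma). The PHx call was lost without naive 1, naive 2, PHx 1 or PHx 3 (up to 0.11), the bleeding call without naive 2, bleeding 1 or bleeding 2 (up to 0.066) and the HAES call without naive 1, naive 2 or HAES 3 (up to 0.083).

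In the comparisons tested between operated groups Tfpi alone of the 40 genes was called, in F-RBC and in S-RBC against bleeding rats. Differences that were not called reached −1.11 (Plat, S-RBC against PHx rats) and 0.78 (Mbl2, HAES against bleeding rats). With 3 rats per group, a difference that was not called is not shown to be small. HAES rats were compared with bleeding rats only, not with PHx, F-RBC or S-RBC rats. None was called in bleeding, F-RBC or S-RBC against PHx rats, where 0%, 0.0681% and 0.515% of probe sets (0%, 0.0709% and 0.485% of the brighter 50%) were called higher and 0%, 0.104% and 0.218% lower. None was called in S-RBC against F-RBC rats, where 0.0791% of probe sets (0.142% of the brighter 50%) were called higher and 0.417% lower. At an unadjusted p under 0.05 there were 2, 3 and 8 genes in the comparisons with PHx rats, 4, 3 and 7 in F-RBC, S-RBC and HAES against bleeding rats and 5 in S-RBC against F-RBC rats. Over all 36685 probe sets the same cut passed 4111, 5187 and 5188 against PHx rats, and 4891, 7220 and 5324 against bleeding rats. It passed 6804 in S-RBC against F-RBC rats. These unadjusted counts are not read as a result about the 40 genes. Median log2 fold changes of the 40 genes lay between −0.04 (HAES against bleeding) and 0.13 (F-RBC against PHx and F-RBC against bleeding). Several of these small medians changed sign. That in S-RBC against F-RBC rats was 0.03 as tested, −0.04 after quantile normalization, 0.15 after median centring and −0.08 without S-RBC 1, and it was also below 0 without F-RBC 1 or F-RBC 2 (−0.05 for each). In F-RBC against PHx rats it was −0.02 after median centring. HAES against bleeding rats gave 0.04 without HAES 1 and 0.05 without HAES 2. Bleeding against PHx rats gave 0.03 as tested, −0.06 after median centring and −0.01 without PHx 2. Without S-RBC 1 the median was 0.05 in S-RBC against PHx rats and 0.02 in S-RBC against bleeding rats, in place of 0.12 and 0.08. These comparisons share groups with each other and are not independent.

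**Figure D4:**
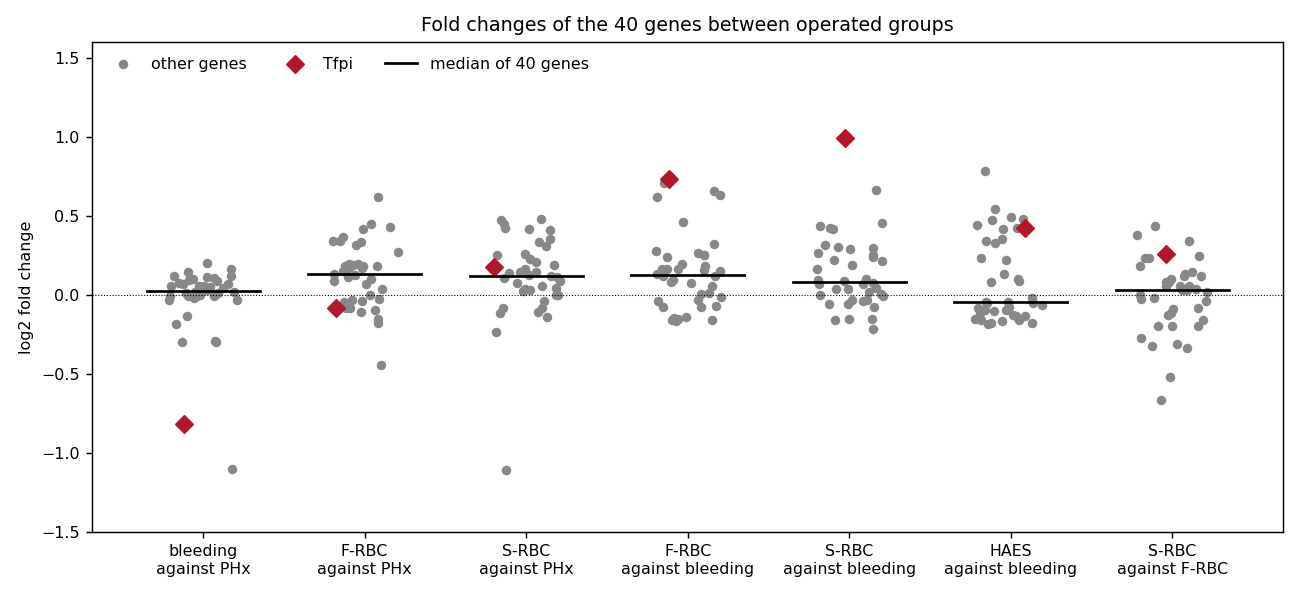
Log2 fold change of each of the 40 genes (dots) in 7 comparisons between operated groups, with the median of the 40 genes (line) and Tfpi (diamond). Tfpi lies at −0.82 in bleeding against PHx, 0.73 in F-RBC against bleeding and 1.00 in S-RBC against bleeding rats, and the medians lie near 0.

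Other genes of the same pathways were taken from 6 lists with 66 genes, of which 54 were measured. Of these 54 genes 2 rose in PHx, 1 in bleeding, 6 in F-RBC, 4 in S-RBC and 1 in HAES against naive rats, 0 fell, and 5 passed the F test. These are 3.7%, 1.85%, 11.1%, 7.41%, 1.85% and 9.26% of the 54, beside 0.245%, 0.57%, 4.9%, 2.56%, 1.78% and 6.59% of all probe sets, and 9.57% of the brighter 50% for the F test, so the shares in HAES rats and in the F test lay near the background. A2m, which encodes alpha-2-macroglobulin, a broad protease inhibitor and a classical acute phase protein of the rat, accounted for a rise in each group. Its log2 values were 8.74, 7.36 and 8.86 in naive, 12.27, 11.64 and 11.50 in PHx, 11.82, 11.71 and 11.86 in bleeding, 10.71, 11.07 and 11.22 in F-RBC, 12.37, 12.06 and 11.93 in S-RBC and 11.93, 11.76 and 12.03 in HAES rats. Naive rats were far below all others, and F-RBC rats were the lowest operated group without overlapping the rest. A2m rose between 2.68 ± 0.29 in F-RBC (6.41-fold, adjusted p = 0.00015, limma) and 3.80 ± 0.29 in S-RBC rats (13.9-fold, adjusted p = 2.8e-06). Without S-RBC 1 the rise in S-RBC rats was 3.68 (adjusted p = 5.9e-05). S-RBC against F-RBC rats differed by 1.12 ± 0.29 (adjusted p = 0.080), or 0.99 without S-RBC 1 (adjusted p = 0.19), which did not pass.

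Procr and F2r, which encode the endothelial protein C receptor and the thrombin receptor PAR1, were lower in S-RBC than in PHx rats. Procr had log2 values of 6.60, 6.74 and 6.92 in PHx and 5.30, 5.63 and 5.72 in S-RBC rats, with 5.89 to 5.96 in naive, 5.55 to 6.55 in bleeding, 5.47 to 6.29 in F-RBC and 5.15 to 5.56 in HAES rats. The PHx rats were above every other rat. F2r was at 5.69, 6.04 and 6.06 in PHx and 4.68, 5.18 and 5.06 in S-RBC rats, with 5.13 to 5.34 in naive, 5.12 to 5.24 in bleeding, 5.31 to 5.86 in F-RBC and 5.09 to 5.49 in HAES rats. S-RBC rats lay below all PHx and all F-RBC rats for it. The fall in S-RBC against PHx rats was −1.20 ± 0.23 for Procr (adjusted p = 0.023, limma) and −0.96 ± 0.17 for F2r (adjusted p = 0.015), where 0.218% of probe sets were called lower. Without S-RBC 1 neither passed (adjusted p = 0.080 and 0.062), and the Procr call was also lost without any PHx rat or S-RBC 3 (up to 0.12) and the F2r call without PHx 3 (0.092). F13a1, which encodes the A subunit of factor XIII, a macrophage and platelet product, fell in S-RBC against bleeding rats (−0.92 ± 0.22, adjusted p = 0.038), where 0.84% of probe sets were called lower, and was not called without S-RBC 1 (adjusted p = 0.12), S-RBC 2 or any bleeding rat (up to 0.14).

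**Figure D5:**
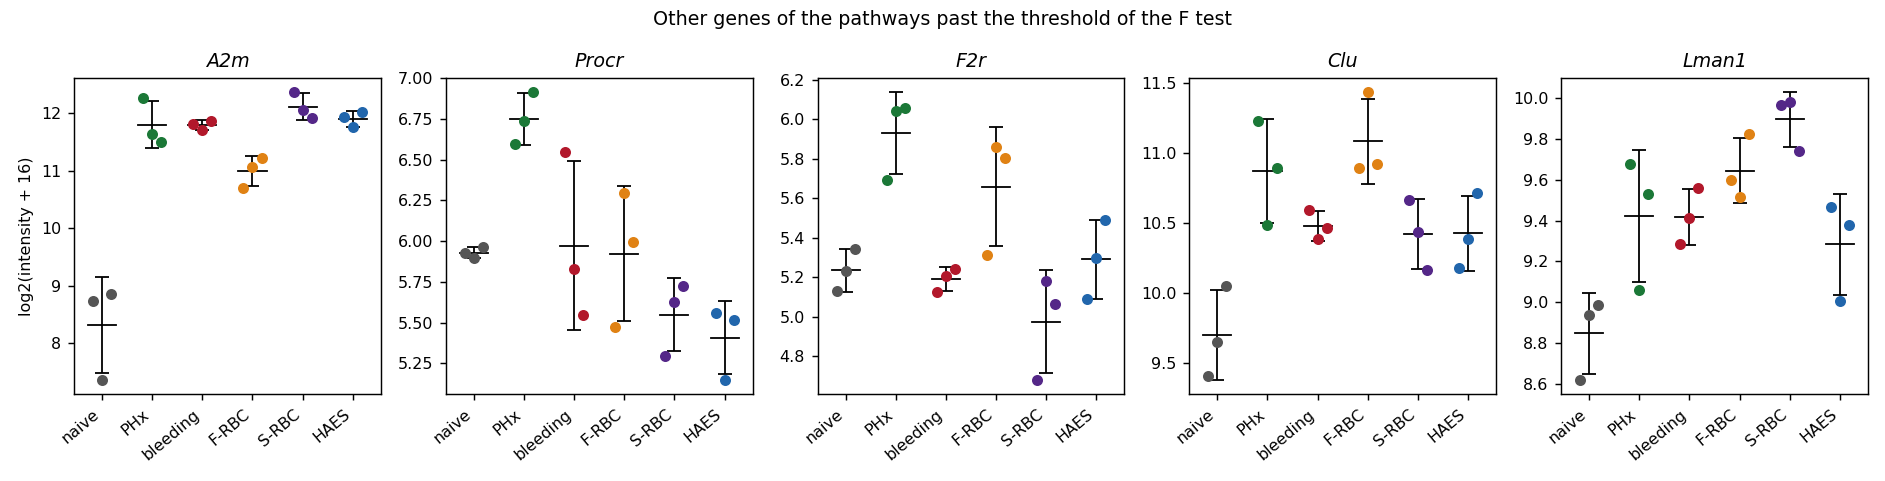
Log2(intensity + 16) of A2m, Procr, F2r, Clu and Lman1, the genes of the other lists past the threshold of the F test, on each array (dots, 3 per group), with the group mean and SD (bars). A2m is between 7.36 and 8.86 in naive rats and between 10.71 and 12.37 in operated rats.

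Lman1 and Mcfd2 encode the receptor that carries factors V and VIII out of the endoplasmic reticulum. Lman1 measured 8.62, 8.94 and 8.99 in naive, 9.68, 9.06 and 9.53 in PHx, 9.29, 9.41 and 9.56 in bleeding, 9.60, 9.51 and 9.82 in F-RBC, 9.96, 9.98 and 9.74 in S-RBC and 9.47, 9.003 and 9.38 in HAES rats. All operated rats were above the naive rats, HAES 2 barely. Lman1 rose by 1.05 ± 0.17 in S-RBC (adjusted p = 0.0033, limma) and 0.80 ± 0.17 in F-RBC rats (adjusted p = 0.015), Mcfd2 by 0.70 ± 0.17 in S-RBC rats (adjusted p = 0.036), and Ggcx, the vitamin K-dependent carboxylase of the clotting factors, by 1.05 ± 0.22 in F-RBC rats (adjusted p = 0.014). Serping1, which encodes the C1 inhibitor of the classical and contact pathways, rose in F-RBC (1.11, adjusted p = 0.013) and S-RBC rats (0.98, adjusted p = 0.031). Without S-RBC 1 Lman1 passed in S-RBC rats (adjusted p = 0.016), whereas Mcfd2 and Serping1 did not (0.12 for each). Lman1 and Serping1 were lost in F-RBC rats without naive 1 or F-RBC 3 (up to 0.072 and 0.070), Ggcx without naive 1 or F-RBC 2 (up to 0.069), Serping1 in S-RBC rats without naive 1 (0.16), and Mcfd2 without any naive rat, bleeding 2 or S-RBC 3 (up to 0.16). After median centring Lman1 was not called in F-RBC rats and Mcfd2 was not called.

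Clu encodes clusterin, which restrains the terminal complement complex, and had log2 values of 9.41, 9.66 and 10.05 in naive, 11.23, 10.49 and 10.89 in PHx, 10.60, 10.39 and 10.46 in bleeding, 10.90, 11.43 and 10.92 in F-RBC, 10.66, 10.43 and 10.16 in S-RBC and 10.18, 10.39 and 10.71 in HAES rats. The naive rats were below all others and F-RBC 2 was the highest. Clu rose by 1.38 ± 0.21 in F-RBC (adjusted p = 0.0020, limma) and 1.16 ± 0.21 in PHx rats (adjusted p = 0.027). The PHx call was lost without naive 1, naive 2, PHx 1 or PHx 3 (up to 0.16). Among complement receptors Vsig4, which is carried by Kupffer cells, rose in S-RBC against bleeding rats (0.97 ± 0.24, adjusted p = 0.045), while the summed intensity of 6 of 6 Kupffer cell markers was 1367 to 1896 in S-RBC and 855 to 1341 in bleeding rats. Vsig4 is itself in that list, and the part of Kupffer cells in its value was not tested. The Vsig4 call held only without naive 1, naive 2, F-RBC 1, S-RBC 2, HAES 1 or HAES 3, and had an adjusted p of 0.12 without S-RBC 1. None of 7 other fibrinolysis genes was called in any comparison, and of 8 transcription factors Foxa2 alone rose, in F-RBC rats (0.63, adjusted p = 0.034), a call lost without naive 1, naive 3 or any F-RBC rat (up to 0.12) and under both scalings.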

How the data were processed

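Total liver RNA was labelled by the WT PLUS protocol and hybridised to GeneChip Rat Gene 2.0 ST arrays. The authors deposited linear intensities, 1 for each probe set on each array. Affymetrix Power Tools and PLIER stand in the submitters' processing notes and RMA and PLIER in the methods. Which summary was deposited, with which versions and genome build, is not given in the sources used here. Array medians differ, so intensities were not brought to 1 distribution. No detection calls were used here, and there were 0 unused columns of sample values. The number of arrays, 18, limits the precision.

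Symbols came from the platform annotation of the array, in which 18511 probe sets carry 1 symbol and 575 several. The brightest probe set stood for a gene. Group means of log2(intensity + 16), a scale that understates changes of dim genes, were fitted in limma 3.58.1 (R 4.3.3) over all 18 arrays with a variance trend (residual degrees of freedom 12, prior 4.79 at the median). All p-values were two-sided and adjusted by Benjamini-Hochberg over 36685 probe sets, threshold 0.05, in 12 comparisons and an F test over 6 groups. The labels call the replicates biological.

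The 42 genes and the lists were chosen with earlier results of these data known. Values on each array are given for genes of each role past the F test (at most 4), otherwise for the 1 with the smallest p, and for up to 4 genes past it per other list. Plat, Serpind1 and the other genes named with fewer values were chosen after their values were seen. Tried as alternatives were array weights, offsets of 1 and 64, median centring, quantile normalization, a filter on dimmer probe sets, a replicate block, only the groups compared, the methods' t-test, the mean of a gene's probe sets and leaving out each array. Some listed genes, such as Kng2, were not analysed here. The pipeline was tested on simulated data. Figures used Python 3.11.15 and matplotlib 3.10.9.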

Additional observations from a re-analysis of the deposited data

How the results depend on the processing

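The number of genes past the F test was 13 with an offset of 64 and 14 without the dimmer probe sets, against 8, and was 6 to 9 leaving out 1 array. Fits on only the groups compared called 1 gene in PHx, 6 in F-RBC, 3 in S-RBC and 2 in HAES against naive rats, and 0 in F-RBC and S-RBC against bleeding rats and 1 in HAES against bleeding rats. The methods' t-test after Benjamini-Hochberg called 0 genes in each of the 12 comparisons, and 11, 15, 16, 16 and 11 before adjustment in PHx, bleeding, F-RBC, S-RBC and then HAES against naive rats, with 4 residual degrees of freedom and no sharing of variance between probe sets. The counts before adjustment are given without a share over all probe sets and are not read as a result. Median centring gave 6 in F-RBC against naive, 0 in F-RBC against bleeding and 1 in HAES against bleeding rats. Quantile normalization gave 0 and 2 in the last of these. Array weights gave 8 in bleeding against naive, 1 (lower) in bleeding against PHx, 3 in F-RBC against bleeding and 1 in HAES against bleeding rats. In F-RBC against bleeding rats the offset of 64 and the mean of a gene's probe sets gave 0, and without the dimmer probe sets HAES against bleeding rats gave 1. The cause was not tested.

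Leaving out 1 array gave 1 to 4 genes in PHx, 2 to 6 in bleeding, 4 to 13 in F-RBC, 5 to 13 in S-RBC and 2 to 7 in HAES against naive rats. It gave 0 to 1 in F-RBC, S-RBC and HAES against bleeding and in S-RBC against PHx rats (Plat, without PHx 2), and 0 in the other 3 comparisons. No call changed direction. Of 41 calls, 39 against naive rats and 2 of Tfpi against bleeding rats, 41 kept their side of the threshold without dimmer probe sets, 40 with the mean of probe sets, 37 with array weights and with either offset, 35 after quantile normalization, 29 after median centring and 16 in fits on only the groups compared.

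Replicate numbers did not pair the rats: over 45 same-numbered pairs of arrays the correlation of deviations from group means was −0.25 to 0.29 (median −0.04). For 3 of 18 arrays the mean correlation was higher with same-numbered than with different-numbered arrays of other groups. With the replicate number as a block 34 of the 41 calls passed, and 0 genes were called in F-RBC against bleeding rats.

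Shares of higher against lower calls over all probe sets also moved between operated groups. As tested, after quantile normalization and after median centring, 39.7%, 39.3% and 13.2% of calls were higher in F-RBC against PHx, 70.3%, 60.3% and 58.6% in S-RBC against PHx, 84%, 63.7% and 76.1% in F-RBC against bleeding, 59.3%, 53.4% and 76% in S-RBC against bleeding, 63.5%, 63.6% and 76.8% in HAES against bleeding and 15.9%, 42.4% and 63.1% in S-RBC against F-RBC rats.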
